A study of Mus musculus with 7 samples.

Results

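The myotendinous sections of DMD muscle are the cryosections of dystrophic tibialis anterior, a muscle of the shin that lifts the foot, that carried the most RNA of 4 genes of the muscle-tendon border. The scoring genes were Col22a1, a collagen of the junction itself, Thbs4, a thrombospondin of tendon and muscle attachment, Tnmd, a membrane protein of tendon cells, and Fmod, a collagen-binding proteoglycan of tendon. Each section was scored by the summed CPM of these genes (counts scaled to a common total per section), and the top 20% of sections of a muscle were set against the bottom 50%, called low-score sections. This gave 38 myotendinous sections (13, 13 and 12 in the 3 DMD muscles) and 95 low-score sections (32, 33 and 30) out of 192 DMD sections kept and 233 in the tables. The whole series held 422 kept sections of 525.

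The study measured polyA RNA section by section in 3 DMD, 2 Ctr and 2 WT muscles of mice. Column names in the file headers carry mdx for DMD, hDMD for Ctr and pax7 for WT, and the labels explain none of them. Mdx is the usual name of a mouse strain that lacks dystrophin. The labels give no age, strain or treatment. They are silent on whether each muscle is from its own mouse, so differences among these 7 muscles may be technical. The p-values therefore do not speak for mice in general. In the DMD comparison the p-values rest on the 3 DMD muscles alone and on a spread shared by all genes. The same rule gave 46 myotendinous and 114 low-score sections in the 4 non-dystrophic muscles. Each group of sections was summed per muscle, so the muscle was the replicate, and in such sums fewer cells of a type and less RNA per cell cannot be told apart.

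At the myotendinous junction a muscle fibre ends on tendon, and its membrane folds into the tendon's collagen so that the force of contraction passes from the sarcomeres to the matrix. Dystrophin and integrin complexes link the cytoskeleton to that matrix on the muscle side. On the tendon side, tenocytes secrete fibrillar collagens together with thrombospondins, small leucine-rich proteoglycans and cartilage-type matrix proteins that organise the fibrils.

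High scores gathered at the ends of the section numbers, which the labels do not tie to a position in the muscle. Of the 13 myotendinous sections of DMD 1, 6 lay in the first 25% and 6 in the last 25% of the numbered sections. In DMD 2 the first 25% held 6 and the last 25% held 5 of 13. In DMD 3 the last 25% held 10 of 12 and the first 25% held 1. The next 25% after the first held 0 in all 3 muscles.

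**Figure D1:**
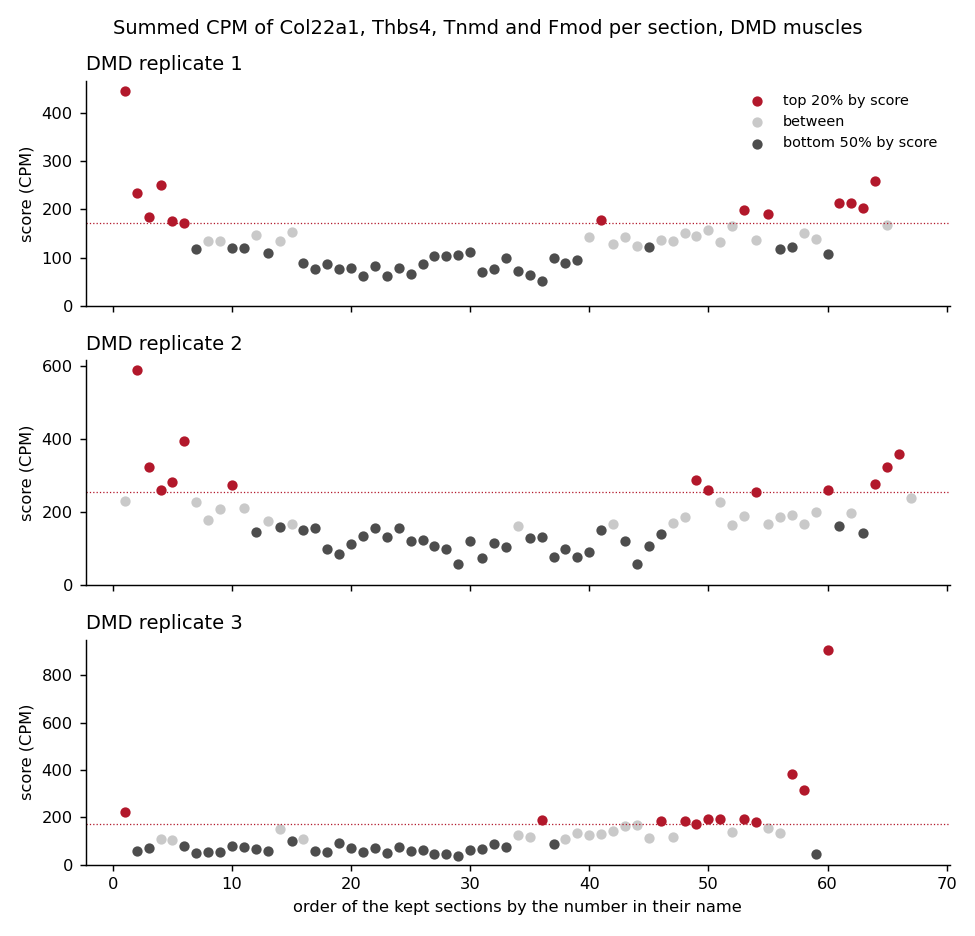
Score of every kept section of the 3 DMD muscles (y axis, summed CPM of the 4 scoring genes) against its place in the order of section numbers (x axis). Red points are the top 20%, dark grey the bottom 50%, light grey the sections between, and the dotted line is the lowest score inside the top 20%; high scores sit at both ends in DMD 1 and DMD 2 and mostly at the high-numbered end in DMD 3.

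As a description of the choice, the last section inside the top 20% and the first outside it scored 171 and 168 CPM in DMD 1, 256 and 239 CPM in DMD 2, and 173 and 167 CPM in DMD 3. The lowest score above the bottom 50% and the highest within it were 123.3 and 122.7 CPM in DMD 1, 163.3 and 163.2 CPM in DMD 2, and 104 and 101 CPM in DMD 3. Thbs4 supplied 81.7, 83.2 and 86.3% of the summed score of the myotendinous sections, so the choice rested mainly on that gene. The myotendinous sections were shallower, with a median of 428955, 114192 and 232417 counts per section in DMD 1, 2 and 3, against 742219, 157709 and 457094 in low-score sections. Mitochondrially encoded RNA took 35.5, 30.4 and 44.1% of counts in myotendinous sections and 38.3, 33.1 and 42.9% in low-score sections. Fast-fibre genes, which define the labelled tissue, summed to 155300, 189600 and 163000 CPM in myotendinous sections, against 156000, 182500 and 167100 CPM in low-score sections.

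Outside the scoring genes, 46 of 10868 genes differed between myotendinous and low-score sections of DMD muscle (0.423%, edgeR's quasi-likelihood test with muscle as block and Benjamini-Hochberg adjusted p below 0.05). Of these 46, 28 were higher (0.258%) and 18 lower (0.166%) in myotendinous sections. The genes that rose included tendon and cartilage-type matrix genes that the score did not use, and those that fell included Mbp of Schwann cells, Myh11 and Acta2 of smooth muscle, Eln (elastin) and the sarcomere genes Actc1 and Csrp3. DESeq2 called 8 genes, all among the 46 (Chad and Cilp2 not among them), and with every section of a muscle thinned to 1 total 9 were called, 6 of them among the 46. Without the pairing of the sums of a muscle, edgeR called 0, with 69 at an unadjusted p below 0.05. In the paired fit, 613 genes (5.64% of those tested) had an unadjusted p below 0.05, the share beside which such counts for single lists below stand.

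The change had 1 sign in all 3 muscles for 40 of the 46 genes, against 24.3% of all genes tested. The values of the groups did not overlap for 21 of the 46, against 3.88% of all genes tested. The 46 were called by a paired test on these same muscles, which favours such genes. Both shares therefore describe the called genes and are no further evidence for them. The median log2 fold over all genes tested was -0.0020.

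Promoters from RefSeq (GRCm38.p6, 250 bases before to 50 bases after the annotated start) are shown for 4 genes at the centre of these results, a pair that rose (Chad and Col11a1) and a pair that fell (Actc1 and Acta2). Capitals mark matches, on either strand, to CAGCTG, to CATCTG, to GGAATG or to a strict CArG box. That strict form is CCWWWWWWGG, where W is A or T, and looser forms are not marked. CAGCTG and CATCTG are E-boxes of the kind bound by basic helix-loop-helix factors, GGAATG is the core of TEAD sites, and the CArG box is the core of serum response factor sites.
Chad, chr11:94564797-94565096, plus strand: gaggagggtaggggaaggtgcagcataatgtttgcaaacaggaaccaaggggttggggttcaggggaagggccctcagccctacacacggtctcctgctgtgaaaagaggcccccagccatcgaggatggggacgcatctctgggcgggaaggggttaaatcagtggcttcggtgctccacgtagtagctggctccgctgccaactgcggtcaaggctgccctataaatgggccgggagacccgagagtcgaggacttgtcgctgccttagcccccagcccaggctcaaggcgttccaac
Col11a1, chr3:114030290-114030589, plus strand: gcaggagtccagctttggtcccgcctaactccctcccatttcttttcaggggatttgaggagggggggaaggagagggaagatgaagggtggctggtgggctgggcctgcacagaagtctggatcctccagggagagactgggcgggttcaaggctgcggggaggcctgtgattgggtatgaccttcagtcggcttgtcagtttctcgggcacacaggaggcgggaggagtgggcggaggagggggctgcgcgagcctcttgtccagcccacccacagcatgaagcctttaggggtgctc
Actc1, chr2:114052826-114053125, minus strand: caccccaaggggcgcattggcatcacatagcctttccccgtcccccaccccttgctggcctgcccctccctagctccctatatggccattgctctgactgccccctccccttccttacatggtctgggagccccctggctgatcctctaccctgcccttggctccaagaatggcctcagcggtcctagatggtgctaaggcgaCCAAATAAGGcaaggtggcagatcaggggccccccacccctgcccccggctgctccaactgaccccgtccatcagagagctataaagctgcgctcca
Acta2, chr19:34255324-34255623, minus strand: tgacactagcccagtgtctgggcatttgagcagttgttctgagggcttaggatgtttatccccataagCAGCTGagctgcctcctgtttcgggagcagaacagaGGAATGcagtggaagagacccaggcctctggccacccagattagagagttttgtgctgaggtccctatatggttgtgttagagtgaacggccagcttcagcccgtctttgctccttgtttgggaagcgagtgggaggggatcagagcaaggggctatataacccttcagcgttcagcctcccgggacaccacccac
The Actc1 window held 1 strict CArG box, starting 47 bases upstream of the start annotated in RefSeq. That whole window lies within the span of Actc1 used for counting, given below, which reaches further upstream. The Acta2 window held 1 CAGCTG and 1 GGAATG, starting 182 and 146 bases upstream, and no strict CArG box. Both windows also hold CCCTATATGG, which differs from the strict form at 1 base and was not counted. The Chad and Col11a1 windows held none of these letters. Of all 32851 promoters in the table, 1.63% held a strict CArG box, 16.3% CAGCTG, 17.2% CATCTG and 14.7% GGAATG. Of the 46 genes, 31 had a promoter in the table.

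Several tendon genes outside the score were higher in myotendinous sections: of 11 on the list, 7 were tested and 5 of these rose, with a median log2 fold of 1.68 over the tested members. Summed over all 11, the list stood at 273, 348.5 and 223 CPM in myotendinous sections, against 221, 359.6 and 172 CPM in low-score sections, so DMD 2 did not show the direction of the other two. Chad (GRCm38 11:94565047-94569127) encodes chondroadherin, a leucine-rich matrix protein of cartilage and tendon. It stood at 8.13, 15.5 and 32.9 CPM in the myotendinous sections of DMD 1, 2 and 3 (scaled by TMM, which corrects each sum's total for a few genes that take a large share), against 2.12, 6.16 and 1.52 CPM in low-score sections. The groups did not overlap, and the log2 fold was 2.52 ± 0.20 (n = 3 muscles, edgeR adjusted p = 1.4e-32). Each ± here and below is an approximate SE from edgeR's fit, not the spread of a fold over the muscles. For Chad the values of DMD 3 stood much further apart than those of DMD 1 and 2. DESeq2 gave the same fold with an adjusted p of 1.0.

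Comp (8:70373558-70382066), the cartilage oligomeric matrix protein that binds tendon collagen, had 9.51, 8.01 and 9.39 CPM in myotendinous sections, against 3.28, 3.24 and 1.81 CPM in low-score sections. Every myotendinous value lay above every low-score value, with a log2 fold of 1.68 ± 0.23 (edgeR adjusted p = 1.8e-10). Cilp2 (8:69880369-69887687), a cartilage intermediate layer protein, had 2.76, 6.41 and 6.26 CPM in myotendinous sections, against 1.24, 0.81 and 1.05 CPM in low-score sections. These values also did not overlap and rest on 20, 12 and 16 counts in myotendinous sections and 32, 5 and 11 in low-score sections. The log2 fold of Cilp2 was 1.93 ± 0.34 (edgeR adjusted p = 1.0e-05, and 0.085 with DESeq2).

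The other members of the list that rose owed their fold mostly to DMD 3. Angptl7, a secreted angiopoietin-like protein, had 1.10, 1.6 and 27.0 CPM in myotendinous sections, against 0.46, 5.03 and 0.67 CPM in low-score sections. It was higher in 2 of 3 muscles, with a log2 fold of 2.34 ± 0.31 (edgeR adjusted p = 7.4e-11) that became -0.19 without DMD 3. Prg4, which encodes lubricin, had 9.51, 8.01 and 16.0 CPM in myotendinous sections, against 7.37, 6.33 and 3.05 CPM in low-score sections. Its log2 fold was 0.90 ± 0.20 (edgeR adjusted p = 0.0019), and 0.37 with an adjusted p of 0.71 without DMD 3. Scx, the tendon lineage transcription factor, had 7.85, 8.01 and 9.78 CPM against 6.71, 3.57 and 7.04 CPM and did not pass (log2 fold 0.44, edgeR adjusted p = 0.78), and neither did Cilp (-0.14).

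Of the collagen lists, edgeR called 1 gene and limma-voom 2. Col11a1 (3:114030540-114220718), a chain of the minor fibrillar collagen XI that sets fibril diameter, was the only 1 of 8 tested fibrillar collagen genes that edgeR called. It had 7.58, 11.2 and 4.30 CPM in myotendinous sections, against 1.81, 2.43 and 1.71 CPM in low-score sections. The groups did not overlap and the log2 fold was 1.94 ± 0.26 (edgeR adjusted p = 3.2e-10).

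Col1a1 and Col1a2, the chains of the main tendon collagen, did not pass in edgeR. Col1a1 had 814, 621 and 207 CPM in myotendinous sections, against 418, 485 and 232 CPM in low-score sections, so DMD 3 went the other way. Its log2 fold was 0.41 ± 0.11 (edgeR adjusted p = 0.069), and 0.67 with an adjusted p of 1.4e-07 without DMD 3. Col1a1 was also called with limma-voom (0.43, adjusted p = 0.045), with a mean z-score (0.54, edgeR adjusted p = 0.0025) and with a score from Tnmd and Fmod alone (0.50, edgeR adjusted p = 2.8e-04). Col1a2 had a log2 fold of 0.31 (edgeR adjusted p = 0.40) and was called in 1 of 19 alternatives, the one without DMD 3. None of the 11 other collagens, 16 collagen-processing and turnover genes or 9 basement membrane genes tested from the lists passed. Their list medians were 0.08, 0.13 and 0.03. Mmp13, a collagenase on none of the lists, was among the 46 genes that edgeR called. It was also called in 11 of the 16 alternatives that tested it. Mmp13 had no call with DESeq2, with thinned sections, for the top 10%, with all 7 muscles in the fit or without DMD 1. Col8a2, a short-chain collagen on none of the lists and chosen after its values were seen, had 6.61, 14.4 and 5.87 CPM in myotendinous sections, against 1.85, 6.81 and 1.62 CPM in low-score sections. It was higher in all 3 muscles (log2 fold 1.57 ± 0.24, edgeR adjusted p = 3.4e-08).

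**Figure D2:**
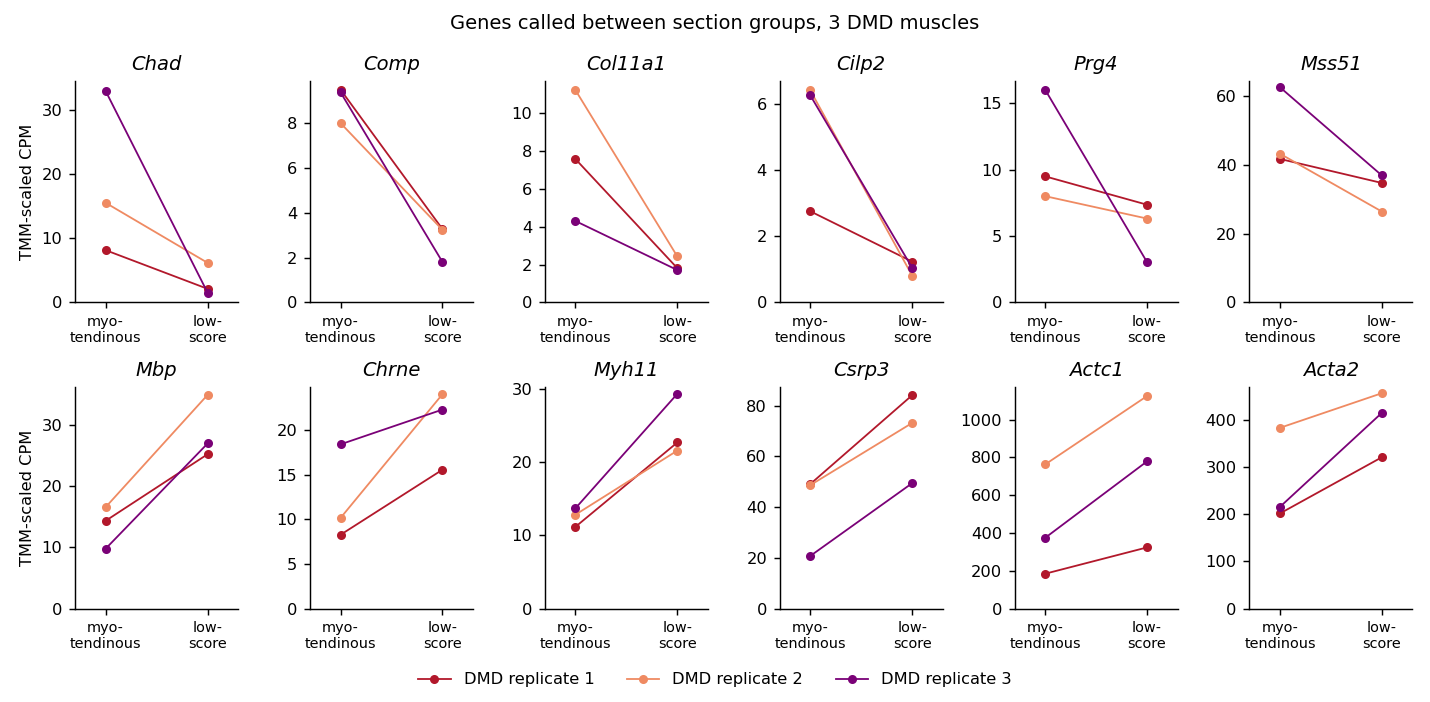
TMM-scaled CPM (y axis, linear and from 0) of 12 called genes in the summed myotendinous sections (left) and low-score sections (right) of the 3 DMD muscles, 1 line per muscle. Lines fall to the right for Chad, Comp, Col11a1, Cilp2, Prg4 and Mss51, and climb to the right for Mbp, Chrne, Myh11, Csrp3, Actc1 and Acta2, in every muscle.

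Genes known from the junction itself did not pass. Of 10 such genes besides the scoring genes, 7 were tested and 0 were called by edgeR, with 3 at an unadjusted p below 0.05, 0 called by DESeq2, 1 called by limma-voom and a median log2 fold of 0.44. Tigd4, a marker of junctional nuclei in mouse fibres, had 5.10, 2.14 and 2.35 CPM in myotendinous sections, against 1.58, 1.95 and 1.71 CPM in low-score sections. The groups did not overlap, on 37, 4 and 6 counts in myotendinous sections, and the log2 fold was 1.16 ± 0.33 (edgeR adjusted p = 0.078, and 0.031 with limma-voom). Ncam1, an adhesion molecule also found on junctional and regenerating fibres, had a log2 fold of 0.67 ± 0.20 (edgeR adjusted p = 0.11). Ankrd1, a stretch-responsive ankyrin repeat protein, was at 409, 198 and 74.7 CPM in myotendinous sections, against 340, 120 and 89.3 CPM in low-score sections. Its log2 fold of 0.26 did not pass (edgeR adjusted p = 0.76), and without DMD 3 it was 0.47 with an adjusted p of 0.014. The sections thus carried tendon genes that the score had not used, while edgeR called none of the tested junction genes that it had not used, and the name myotendinous stands here for the score.

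The membrane linkages that carry force at the junction showed no call either. Over 16 integrin adhesion genes and 12 dystrophin complex genes, 0 of 28 passed in edgeR, 1 had an unadjusted p below 0.05, and 0 passed in DESeq2 or limma-voom. The list medians were -0.00046 for integrin adhesion and -0.11 for the dystrophin complex. Itga7, the laminin-binding integrin chain of muscle fibres, had 77.6, 59.8 and 66.9 CPM in myotendinous sections, against 78.3, 56.4 and 67.4 CPM in low-score sections, and the groups overlap (log2 fold 0.01 ± 0.12). Dmd, the dystrophin gene, had 12.5, 17.6 and 15.3 CPM in myotendinous sections, against 11.03, 17.3 and 11.3 CPM in low-score sections, and did not pass (log2 fold 0.21 ± 0.17, edgeR adjusted p = 0.99). Its RNA count does not show whether the protein is made, and so does not check the labels.

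**Figure D3:**
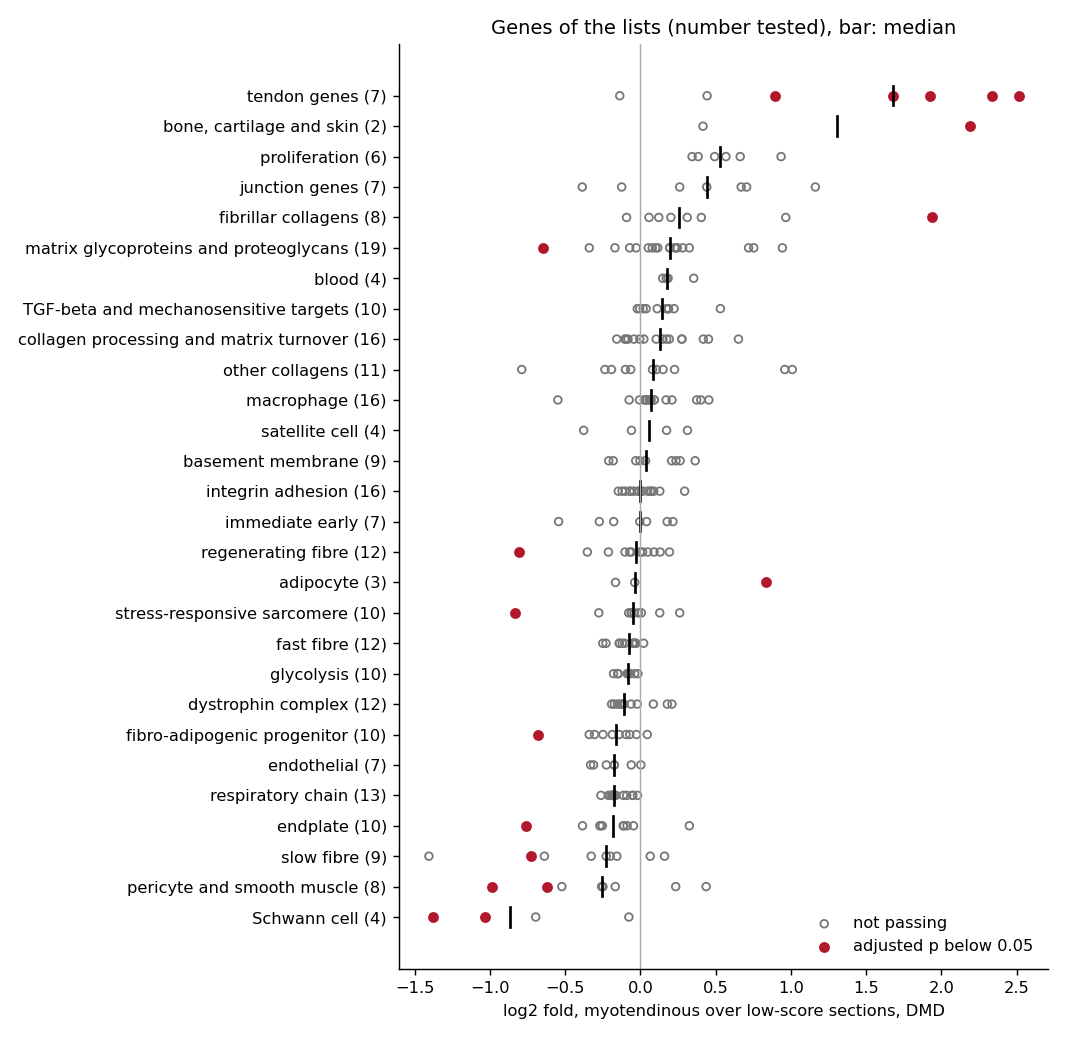
Log2 fold of myotendinous over low-score sections (x axis) for every tested gene of each list, with the number tested in parentheses and a black bar at the list median. Red points passed at an adjusted p below 0.05 and open points did not; the tendon list has 5 red points above 0, and the Schwann cell list 2 below.

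Some Schwann cell genes, which serve the myelin sheath of nerves, were lower in myotendinous sections. Of 9 Schwann cell genes, 4 were tested, 2 fell and the median was -0.86. The 9 genes summed to 47.5, 43.5 and 28.0 CPM in myotendinous sections, against 68.9, 78.6 and 51.2 CPM in low-score sections, with no member at 0 in every sum. Mbp, myelin basic protein, had 14.3, 16.6 and 9.78 CPM in myotendinous sections, against 25.2, 34.9 and 26.9 CPM in low-score sections. Its groups did not overlap, with a log2 fold of -1.03 ± 0.16 (edgeR adjusted p = 3.4e-08). With thinned sections Mbp gave -1.07 and did not pass (edgeR adjusted p = 0.080). Chrne, the adult subunit of the acetylcholine receptor at the endplate, was the only 1 of 10 tested endplate genes to pass. It had 8.27, 10.2 and 18.4 CPM in myotendinous sections, against 15.5, 24 and 22.3 CPM in low-score sections (log2 fold -0.76 ± 0.17, edgeR adjusted p = 0.0018, and 0.63 without DMD 1 or 0.14 without DMD 2).

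The differences of Mbp and Chrne were not called within the end sections. Within the first and last 25% of the section numbers alone, 34 myotendinous sections were compared with the 62 other sections there, in a comparison chosen after the data were seen. Mbp then gave -0.23 and Chrne -0.07, with edgeR adjusted p of 0.83 and 0.98. Chad (1.54), Comp (1.21) and Col11a1 (1.20) still passed there, as did Myh11 (-0.83), Csrp3 (-0.74), Actc1 (-0.68) and Acta2 (-0.58), and 8 of the 46 genes were called in all. The other sections in this comparison include those with middle scores, so its folds are not on the same contrast as those against the bottom 50%.

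A pair of smooth muscle genes and elastin were lower in myotendinous sections. Of 8 pericyte and smooth muscle genes, 2 fell. Myh11, smooth muscle myosin heavy chain, had 11.2, 12.8 and 13.7 CPM in myotendinous sections, against 22.7, 21.6 and 29.3 CPM in low-score sections. The groups did not overlap and the log2 fold was -0.99 ± 0.16 (edgeR adjusted p = 7.7e-07). Myh11 did not pass with DESeq2 (adjusted p = 0.053) or with a score from Tnmd and Fmod alone (-0.54, edgeR adjusted p = 0.062). Acta2, smooth muscle actin, had 202, 383 and 216 CPM in myotendinous sections, against 321, 457 and 415 CPM in low-score sections. It was lower in all 3 muscles with overlapping groups (log2 fold -0.62 ± 0.11, edgeR adjusted p = 2.0e-05, and 0.091 without DMD 1). Actin coding sequences are close to each other and multi-mapped reads were divided among genes. The falls of Acta2 and of Actc1, given below, may therefore not be independent.

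Eln, elastin, the only 1 of 19 tested matrix glycoprotein and proteoglycan genes to pass, had 23.6, 48.1 and 41.5 CPM in myotendinous sections, against 36.0, 73.5 and 68.2 CPM in low-score sections. Its log2 fold was -0.64 ± 0.13 (edgeR adjusted p = 2.3e-04, and 0.0503 without DMD 1). The rest of that list did not fall with Eln. Of the 19 genes, 14 had a log2 fold above 0, with a list median of 0.20. In edgeR, 7 of the 19 had an unadjusted p below 0.05. Pi16, a marker of perivascular and adventitial fibroblasts, gave -0.68 ± 0.14 (edgeR adjusted p = 7.2e-04) and was the only 1 of 10 tested fibro-adipogenic progenitor genes to pass. Without DMD 1 the adjusted p of Pi16 was 0.20. The 7 endothelial genes had a median of -0.17 and 0 calls in edgeR, DESeq2 or limma-voom, with 3 at an unadjusted p below 0.05. Together with the satellite cell, immediate early, TGF-beta target and blood lists, 0 of 32 tested genes passed in edgeR, DESeq2 or limma-voom, with 4 at an unadjusted p below 0.05.

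A few sarcomere genes were lower in myotendinous sections. Actc1 (2:114047282-114053548), the cardiac actin that skeletal muscle makes during development and regeneration, had 185, 763 and 374 CPM in myotendinous sections, against 324, 1125 and 779 CPM in low-score sections. It was lower in all 3 muscles although the muscles' ranges overlap, with a log2 fold of -0.81 ± 0.11 (edgeR adjusted p = 9.2e-10). Its coding sequence is close to that of other actins, and multi-mapped reads were divided among genes. Csrp3, the muscle LIM protein of the Z-disc, had 49.1, 48.6 and 20.7 CPM in myotendinous sections, against 84.1, 73.1 and 49.4 CPM in low-score sections. Its groups did not overlap (log2 fold -0.84 ± 0.13, edgeR adjusted p = 5.8e-08, and 0.33 with thinned sections).

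Actc1 was the only 1 of 12 tested regenerating fibre genes to pass, and Csrp3 the only 1 of 10 stress-responsive sarcomere genes. Sln, sarcolipin, an inhibitor of the calcium pump of the sarcoplasmic reticulum, gave -0.80 ± 0.17 (edgeR adjusted p = 0.0016, and 0.075 without DMD 2 or 0.099 without DMD 3). Myoz2, a Z-disc protein of slow fibres, gave -0.72 ± 0.19 (edgeR adjusted p = 0.030) and lost its call without any 1 of the 3 muscles, at adjusted p of 0.64, 0.22 and 0.091 without DMD 1, 2 and 3. Myoz2 was the only 1 of 9 tested slow fibre genes to pass. That list had a median of -0.23, and 4 of its genes had an unadjusted p below 0.05. Of 35 tested genes of fast fibres, the respiratory chain and glycolysis, 0 passed in edgeR, DESeq2 or limma-voom, and 2 had an unadjusted p below 0.05. Their list medians lay between -0.17 and -0.08. None of the 13 respiratory chain or 10 glycolysis genes had a log2 fold above 0, and 1 of 12 fast fibre genes did. In all 3 muscles 8 respiratory chain genes were lower, where 24.3% of all genes tested had 1 sign throughout. Cox6a2, of the respiratory chain, was called as lower in 1 of 19 alternatives.

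Mss51, a muscle gene linked to mitochondrial function, was the only gene that rose with a mean of at least 20 CPM and 1 sign in all 3 muscles. It had 41.7, 43.3 and 62.6 CPM in myotendinous sections, against 34.8, 26.4 and 36.9 CPM in low-score sections. The groups did not overlap and the log2 fold was 0.54 ± 0.13 (edgeR adjusted p = 0.0075), with an adjusted p of 0.11 without DMD 2 and 0.32 without DMD 3. Chodl, chondrolectin, a membrane lectin chosen after its values were seen, had 5.51, 7.48 and 5.48 CPM in myotendinous sections, against 2.20, 2.27 and 2.29 CPM in low-score sections. Its log2 fold was 1.39 ± 0.28 (edgeR adjusted p = 2.3e-04, and 0.072 without DMD 1).

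No tested gene of the macrophage and proliferation lists passed in edgeR, DESeq2 or limma-voom. Of 6 proliferation genes tested, 6 had a log2 fold above 0 and 4 an unadjusted p below 0.05, with a median of 0.53. Their summed level was 98.3, 33.2 and 2.11 CPM in the myotendinous sections of DMD 1, 2 and 3, against 53.7, 33.8 and 2.75 CPM in low-score sections, so only DMD 1 was higher. Top2a, a topoisomerase of dividing cells, had a log2 fold of 0.57 (edgeR adjusted p = 0.25), and 1.07 with an adjusted p of 0.041 for the top 10% of sections.

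Of 16 macrophage genes tested, 3 had an unadjusted p below 0.05. The macrophage median was 0.07, and the summed macrophage level was 2479, 1572 and 294 CPM in the myotendinous sections of DMD 1, 2 and 3, against 1743, 1771 and 283 CPM in low-score sections. Retnla, a secreted protein of alternatively activated macrophages that is not on the macrophage list, was called as lower. It had 7.99, 26.2 and 10.6 CPM in myotendinous sections, against 17.2, 49.3 and 15.2 CPM in low-score sections. Its log2 fold was -0.91 ± 0.16 (edgeR adjusted p = 1.4e-05, and 0.14 without DMD 1).

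A few called genes were high in 1 muscle only. Ibsp, bone sialoprotein, had 13.2, 0 and 0 CPM in myotendinous sections, against 1.70, 1.62 and 0.67 CPM in low-score sections. It was called (log2 fold 2.19, edgeR adjusted p = 1.9e-09) on 96 counts in DMD 1, and its list, of bone, cartilage and skin genes, had 8 members of which 2 were tested and 2, the skin keratins Krt5 and Krt14, were at 0 in every sum. Cfd, the adipocyte product adipsin, had 4.0, 3.74 and 35.6 CPM in myotendinous sections, against 8.45, 4.05 and 4.09 CPM in low-score sections. Its log2 fold of 0.84 (edgeR adjusted p = 0.0068) became -0.90 without DMD 3. Summed adipocyte genes were at 617, 949 and 431 CPM in myotendinous sections, against 586, 964 and 491 CPM in low-score sections, with 3 of 8 tested and none at 0 in every sum, and their part in the Cfd result was not tested. Gm13304, Ccl21d and Gm10591, chemokine copies with nearly the same values (log2 folds -1.68, -1.67 and -1.67), share reads, and a call of any 1 of them is uncertain.

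The sections chosen by the score partly coincided with those rich in fibrillar collagens. By construction each muscle has 20% of its sections in the top group of any such sum. Of the 38 myotendinous sections, 14 were also in the top 20% of their muscle for summed fibrillar collagens (36.8%), 10 each for macrophage and adipocyte genes (26.3%), 6 for endplate genes (15.8%), 4 for regenerating fibre genes (10.5%) and 1 for Schwann cell genes (2.63%). The fibrillar collagen overlap was 6 of 13, 7 of 13 and 1 of 12 sections in DMD 1, 2 and 3. Across sections of a muscle, which share that muscle's library, the score and the summed Schwann cell genes had Pearson's r of -0.50, -0.48 and -0.21 (log2 scale, 65, 67 and 60 sections). The r was -0.27, -0.51 and -0.60 with regenerating fibre genes and 0.35, 0.66 and 0.03 with fibrillar collagens. The score also had r of -0.61, -0.29 and -0.44 with the section's total count.

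The same contrast was then set beside that of non-dystrophic muscle, with 2 Ctr and 2 WT muscles and sections chosen in the same way. Of the 46 genes called in DMD muscle, 31 had the same sign in Ctr (67.4%, against 52.8% of all genes tested) and 32 in WT (69.6%, against 52.7%). For the mean of Ctr and WT, 116 of 11605 genes were called (1%), and 14 genes were on both lists, 30.4% of the 46 and 12.1% of the 116. In the fit of all 7 muscles, Chad gave log2 folds of 2.51 in DMD, 2.19 in Ctr and 2.97 in WT. Col11a1 gave 1.93 in DMD, 0.80 in Ctr and 0.26 in WT, on 0 to 3.48 CPM in any sum of Ctr and WT muscle, and its difference did not pass (1.4 ± 0.95, edgeR adjusted p = 0.91). The Ctr sections were chosen on few reads, with a median of 15.5 and 20 scoring counts per myotendinous section in Ctr, against 87, 35 and 63 in DMD.

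The difference itself, DMD effect minus the mean of the Ctr and WT effects, passed for 8 of 11605 genes (0.0689%), 6 above 0 (0.0517%) and 2 below (0.0172%). Of these, 4 were globin genes, the subunits of red cell haemoglobin. The summed globin level was 3673, 3339 and 7881 CPM in the myotendinous sections of DMD 1, 2 and 3, against 3042, 4235 and 5189 CPM in their low-score sections, which gives log2 ratios of 0.27, -0.34 and 0.60. In Ctr 1 and 2 it was 3817 and 10409 CPM in myotendinous sections, against 7905 and 30824 CPM in low-score sections. In WT 1 and 2 it was 2409 and 3406 CPM in myotendinous sections, against 5711 and 6612 CPM in low-score sections. All 4 non-dystrophic muscles thus had less globin RNA in myotendinous than in low-score sections (log2 ratios -1.57 to -0.96), while the 3 DMD muscles lay on both sides of 0.

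By gene, the difference was 1.37 ± 0.16 for Hba-a1 (edgeR adjusted p = 4.5e-06), and it was 1.4 for Hba-a2, 1.43 for Hbb-bt and 1.39 for Hbb-bs. Globin copies are near-identical and share reads, so the split among them is uncertain. In DMD muscle alone no globin gene passed (Hba-a1 log2 fold 0.18, edgeR adjusted p = 0.94). Alas2, the haem synthesis enzyme of red cells, had a difference of 1.4 that did not pass (edgeR adjusted p = 0.078).

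**Figure D4:**
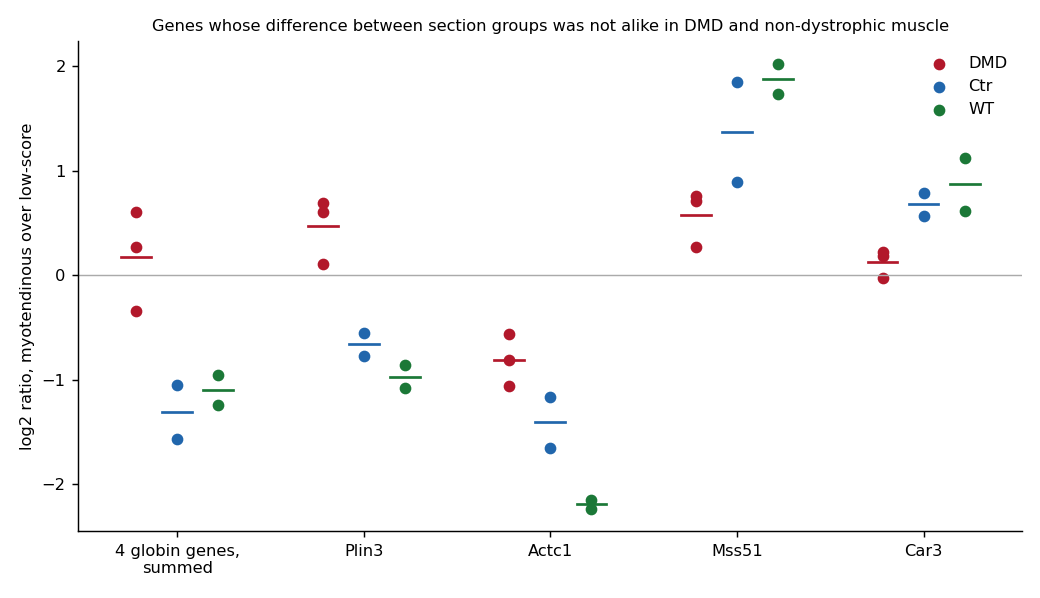
Log2 ratio of myotendinous over low-score sections (y axis) in each muscle for the summed globin genes and 4 other genes, with DMD muscles at left, then Ctr and WT; points are muscles and short bars are group means. The DMD points lie apart from all 4 non-dystrophic points for each gene shown. The genes were chosen by a test of this difference on the same muscles, which favours such a gap. The gap therefore describes the chosen genes and is no further evidence for them.

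The other genes with a difference were muscle and lipid genes. Plin3, a coat protein of lipid droplets, had log2 ratios of 0.61, 0.69 and 0.11 in DMD 1, 2 and 3, against -0.77 and -0.55 in Ctr and -1.08 and -0.86 in WT (difference 1.35 ± 0.20, edgeR adjusted p = 3.8e-04). Of 8 adipocyte genes on the list, 5 were tested for the difference and 0 passed, with a median difference of 1.62. Their median summed level per section was 564, 977 and 395 CPM in the myotendinous sections of DMD 1, 2 and 3, against 587, 975 and 493 CPM in low-score sections. It was 1307 and 1214 CPM in the myotendinous sections of Ctr 1 and 2, against 2457 and 1834 CPM in low-score sections, and 552 and 364 CPM in the myotendinous sections of WT 1 and 2, against 958 and 566 CPM. The part of adipocyte genes in the Plin3 result was not tested.

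Actc1 was lower in the myotendinous sections of every muscle, by log2 ratios of -0.81, -0.56 and -1.06 in DMD, against -1.65 and -1.16 in Ctr and -2.24 and -2.15 in WT (difference 0.998 ± 0.147, edgeR adjusted p = 3.8e-04). Against Ctr alone the Actc1 difference was 0.60 and did not pass (edgeR adjusted p = 0.50). With thinned sections neither Plin3 nor Actc1 passed (edgeR adjusted p = 0.12 for Plin3 and 0.66 for Actc1), and DESeq2 gave no adjusted p for Plin3.

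Mss51 was higher in the myotendinous sections of every muscle, and less so in DMD. It had log2 ratios of 0.27, 0.71 and 0.76 in DMD 1, 2 and 3, against 1.85 and 0.89 in Ctr and 2.03 and 1.74 in WT (difference -1.15 ± 0.18, edgeR adjusted p = 0.0010). Car3, carbonic anhydrase III, an abundant cytosolic enzyme of muscle, had log2 ratios of -0.02, 0.22 and 0.19 in DMD, against 0.79 and 0.57 in Ctr and 1.12 and 0.62 in WT (difference -0.65 ± 0.12, edgeR adjusted p = 0.018). Both calls were lost without DMD 1 (adjusted p = 0.051 for Mss51 and 0.30 for Car3) and without Ctr 1 (0.19 and 0.29), and that of Car3 also without WT 1 (0.31). With thinned sections the adjusted p was 0.058 for Mss51 and 0.24 for Car3, and against Ctr alone it was 0.24 and 0.47, while DESeq2 gave none for Mss51.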

How the data were processed

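The deposited tables, 1 per muscle with 1 column per cryosection, hold expected counts: per the file headers, the authors counted reads per gene with featureCounts 2.0.1 on the stated strand, dividing multi-mapped and multi-overlapping reads into fractions, so 20.1 to 26.1% of nonzero values are not whole. The submitters' processing notes name STAR 2.7.7a and GRCm38. Per the labels, RNA came from single sections, with an 8-base molecular identifier and an 8-base section barcode. The WT tables were counted on another annotation than the Ctr and DMD tables, so only the 53083 shared genes were used.

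Sections with a total of at least 1000 and at least 20% of their muscle's median were kept, scored, summed per muscle and rounded to whole numbers first. Tests used edgeR 4.0.16 in R 4.3.3 (filterByExpr, TMM, quasi-likelihood F test, Benjamini-Hochberg adjustment over all genes) on 6 DMD sums, or on 14 sums of 7 muscles for the difference. Both sums of a muscle come from that muscle, so it entered as a block. With 2 residual degrees of freedom in the DMD fit, edgeR gave every gene the shared spread (infinite prior degrees of freedom). SEs of log2 folds are approximate, from the fold and the F statistic (absolute log2 fold over the root of F). In the DMD fit the SEs and p-values rest on that shared spread. They do not show how far the muscles differ from each other for a given gene. DESeq2 1.42.0 and limma-voom (limma 3.58.1) were alternatives. The median depth per kept section was 162467 to 654073 counts, and counting error limits genes of few counts.

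Named genes were up to 10 called per direction with the largest fold. They were taken from those that averaged 20 CPM or more in the higher region and had 1 sign in all 3 muscles. Added to them were up to 4 members of each of 28 lists, and up to 5 per direction for the difference. The other genes named (Prg4, Scx, Cilp, Tigd4, Ncam1, Col1a1, Col1a2, Col8a2, Mmp13, Chodl, Itga7, Dmd, Krt5, Krt14, Alas2 and the chemokine copies) were chosen after their values were seen. The members, lists and tests were chosen with earlier results of these data known. Some genes of the lists are counted but not reported by name here.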

Additional observations from a re-analysis of the deposited data

Results flagged for a closer look

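The following 8 genes had a difference between myotendinous and low-score sections that was not alike in DMD and non-dystrophic muscle, by an edgeR test of the difference itself (DMD effect minus the mean of the Ctr and WT effects, log2). The difference was 1.37 for Hba-a1, 1.4 for Hba-a2, 1.39 for Hbb-bs and 1.43 for Hbb-bt, which share reads. It was 1.35 for Plin3 and 0.998 for Actc1. It was -1.15 for Mss51 and -0.65 for Car3.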

How the results depend on the processing

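For the DMD comparison, 46 genes were called, and 8 with DESeq2, 25 with a score from Tnmd and Fmod, 22 with a mean z-score, 9 with thinned sections, 30 without mitochondrial genes, 27 with all 7 muscles in the fit and 10 within the first and last 25% of sections (the last added after seeing the data). Leaving out 1 muscle gave 18 (without DMD 1) to 84 (without DMD 3), with 16 and 34 of the 46 among them. Without the replicate block that pairs the sums of a muscle, edgeR called 0 genes in DMD (69 at an unadjusted p below 0.05) and 0 for the difference (169). For the difference, 8 genes were called, and 14 with DESeq2, 13 for DMD minus WT, 19 with a mean z-score, 24 with no filter and 4 with thinned sections; leaving out 1 muscle gave 7 to 11. Of the 46 genes, 10 were called without each DMD muscle in turn, and 2 (Actc1 and Comp) under all 19 alternatives but the missing block. The share of calls that were higher, 60.9%, was 37.5% with DESeq2, 45.5% with a mean z-score, 44.4% with all 7 muscles and 33.3% with thinned sections.

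Some genes changed sign, most of them near 0 and not called, and the cause was not tested. Serpinh1 gave 0.0495 with the Col22a1 and Thbs4 score, 0.0073 with DESeq2 size factors, 0.0016 with all 7 muscles, 0.0044 with limma-voom, 0.0054 with middle sections added, 0.023 with no block, 0.14 thinned, 0.086 for the top 10%, and -0.16, 0.038 and 0.096 without DMD 1, 2 and 3. Tgfb2 gave -0.0012 (Tnmd and Fmod), -0.0075 (all other sections), -0.054 (no filter), -0.089 (thinned), -0.019 (top 10%) and from -0.044 (without DMD 2) to 0.15 (without DMD 1). Atp2a1 gave 0.088 (Tnmd and Fmod), 0.058 (z-score), 0.0022 (sections at 50% of the median) and from -0.10 (without DMD 2) to 0.017 (without DMD 1). Lyz2 gave -0.0024 (Tnmd and Fmod), -0.046 (z-score), -0.015 (no filter) and from -0.0699 (without DMD 1) to 0.26 (without DMD 2). Jun gave -0.031 (Tnmd and Fmod), -0.093 (z-score), -0.0497 (no filter), -0.039 (50% of the median) and from -0.032 (without DMD 2) to 0.16 (without DMD 1). Col6a2 gave 0.026 (first and last 25%), 0.043 (z-score), 0.11 (thinned) and from -0.30 (without DMD 1) to 0.13 (without DMD 3). Aldoa gave 0.0299 (Tnmd and Fmod) and Tns1 -0.017 (no filter). Hba-a1 gave -0.11 at 50% of the median and from -0.015 (without DMD 3) to 0.43 (without DMD 2) with a muscle left out. Among called genes, Ibsp gave -1.93 with DESeq2, Cfd -0.31 at 50% of the median and from -0.90 (without DMD 3) to 2.35 (without DMD 1), and Angptl7 from -0.19 (without DMD 3) to 3.80 (without DMD 2). The other genes recomputed in this way kept their direction under the alternatives that tested them, as did Scx, Cilp, Col1a2, Dmd, the chemokine copies and, for the difference, Alas2. Itga7 lay on the other side of 0 in 8 of 19 alternatives (-0.096 to 0.092). Of 19 alternatives, Cfd was called in 3, Myoz2 in 4, Mss51 in 8, Sln and Prg4 in 10 each, Angptl7 in 11, and Chrne and Eln in 12 each, and each chemokine copy in 12 of the 18 that tested it. Depth limits the genes of few counts, such as Cilp2 and Tigd4, and the choice of the Ctr sections, which rests on a median of 15.5 and 20 scoring counts.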
